A study of Mus musculus with 9 samples.

Results

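The genes described here are nuclear genes for subunits of the 5 complexes of oxidative phosphorylation, the process by which mitochondria turn the oxidation of nutrients into ATP. They were chosen by gene symbol, as every gene whose name begins with Ndufa, Ndufb, Ndufc, Ndufs, Ndufv, Sdha, Sdhb, Sdhc, Sdhd, Uqcr, Cox4i, Cox5, Cox6, Cox7, Cox8 or Atp5, without the Ndufaf assembly factors. This gave 89 of the 18830 genes in the files: 40 of complex I, 4 of complex II, 8 of complex III, 16 of complex IV, 17 of complex V and, by the letter of the rule, the 4 complex II assembly factors Sdhaf1 to Sdhaf4. Of the 89 genes, 88 passed the filter on low counts. The one that did not was Ndufb4b, with 0 to 0.360 counts per 1000000 counts (CPM) over the 9 libraries. It is a near copy of Ndufb4, as is Ndufb4c, and reads of these genes may have been divided among them, so their values are uncertain. The 13 subunits encoded by mitochondrial DNA were not analysed here.

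The libraries are bulk RNA-seq of the suprarenal abdominal aorta of ApoE knock out mice, animals that lack apolipoprotein E and clear remnant lipoproteins poorly. One group of 3 libraries came from mice that had received angiotensin II (Ang II, the pressor peptide of the renin-angiotensin system) for 28 days, a second group of 3 for 14 days, and 3 libraries were sham controls, given saline per the series' design text. Ang II was delivered by an osmotic pump at 1000 ng/kg/min to provoke abdominal aortic aneurysm, and all 3 groups carry the ApoE deletion, so there is no group with an intact Apoe gene. The labels used here give no strain, age or sex, no time for the sham group, and do not say whether each sampled aorta held an aneurysm or whether a library is 1 animal. The p-values therefore measure the spread between these libraries, which may in part be technical. The sample titles say muscle where the tissue field says aorta.

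In the inner mitochondrial membrane, complex I (NADH dehydrogenase) and complex II (succinate dehydrogenase) pass electrons to ubiquinone, complex III (cytochrome bc1) passes them to cytochrome c, and complex IV (cytochrome c oxidase) passes them to oxygen. Complexes I, III and IV pump protons, and complex V (ATP synthase) uses the proton gradient to make ATP. Several small subunits of complex IV exist as a form found in most tissues and a form of contractile or thermogenic tissue: Cox6a1 and Cox6a2, Cox7a2 and Cox7a1, Cox8a and Cox8b. Heart and skeletal muscle and brown fat are rich in these complexes, while vascular smooth muscle relies to a larger degree on glycolysis. In rodents the fat around the aorta includes brown fat, mainly along its thoracic part.

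Library totals lay between 9609690 and 14923936 expected counts. The libraries were not alike in tissue content. Contractile smooth muscle genes were present in every library (10 markers, summed to 2301 to 6982 CPM at 28 days, 3983 to 18360.1 CPM at 14 days and 10896 to 33517 CPM in sham). The 13 skeletal muscle markers summed to 18149, 6294 and 167 CPM in 28-day libraries 1, 2 and 3, against 13.8 to 49.3 CPM at 14 days and 52.1 to 106 CPM in sham. The 8 cardiac markers summed to 855 CPM in sham library 1 and to at most 73.9 CPM in the others. Fat markers were present in every library. The 9 white adipocyte markers summed to 13798 to 26003 CPM at 28 days and 6637 to 18205 CPM at 14 days. In sham they summed to 15564 to 24388 CPM. The 10 brown fat markers summed to 2043 to 5484, 1108 to 2859.8 and 4544 to 9785 CPM in that order. Nerve markers were highest in 28-day library 2, 14-day library 1 and sham library 2, at 2768, 2530 and 5990 CPM. They summed to 1293 CPM in 28-day library 3 and 405 CPM in 14-day library 3, against 73.3 to 171 CPM in the rest. Fits without the 3 nerve-rich libraries kept these lower ones. Apoe was counted at 23.0, 171 and 269.8 CPM at 28 days, 162, 648 and 159.7 CPM at 14 days and 22.5, 87.5 and 70.3 CPM in sham, and a gene total does not show which part of the gene is missing.

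The 88 tested oxidative phosphorylation genes were lower in most cases after 14 days of Ang II than in sham, and overlapped the sham range after 28 days. Together the 89 genes held 3.57%, 2.17% and 3.12% of all counts in the 28-day libraries, 1.73%, 1.29% and 1.89% in the 14-day libraries, and 3.36%, 2.80% and 3.97% in the sham libraries. Each 14-day library was below each library of the other 2 groups on this measure, and the 28-day and sham libraries overlapped. On the log2 scale, relative to the sham mean of each gene, the median of the 88 genes was 0.07, -0.89 and -0.19 in the 28-day libraries, -1.10, -1.27 and -0.94 in the 14-day libraries, and 0.12, -0.40 and 0.21 in the sham libraries. Within the 28-day group, library 2 was the low one and came close to the 14-day libraries. In bulk tissue, fewer cells of a mitochondria-rich type and less RNA of these genes per cell cannot be told apart.

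**Figure D1:**
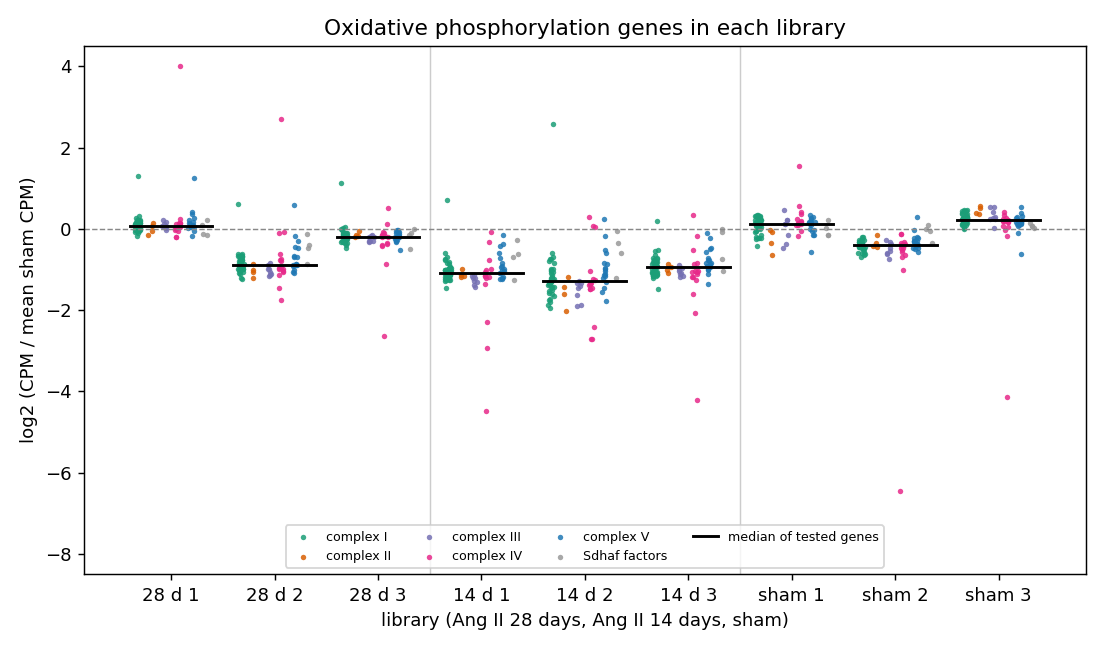
Level of each tested gene in each library as the log2 of its CPM over the mean CPM of the 3 sham libraries, one point per gene, coloured by complex, with the 28-day libraries left of the 14-day and sham libraries and a bar at the median of the 88 genes. The 3 medians of the 14-day libraries lie between -1.27 and -0.94, and 28-day library 2, at -0.89, lies next to them.

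The first comparison sets the 14-day libraries against sham, at the earlier of the 2 time points of the design. Of the 88 genes, 86 had a negative log2 fold change, with a median of -1.12 (2.17-fold lower), while the median of all 14741 genes tested was -0.07. At an unadjusted p under 0.05 in edgeR's quasi-likelihood test, 78 of the 88 were lower and 1 was higher. Of all genes tested, 10.4% were lower by that rule and 13.1% were higher. The 14-day and sham libraries did not overlap, with 14 days lower, for 79 of the 88 genes, where 13.5% of all genes were so, and with 14 days higher for 0 of the 88, where 12.6% of all genes were so. None of the 88 passed an adjusted p of 0.05 in edgeR (lowest 0.117), and neither did any other gene (0% of 14741). DESeq2, run as an alternative, called 70 of the 88 lower and 0 higher at an adjusted p under 0.05, where it called 4.8% of all genes lower and 8.65% higher.

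In complex I, 38 of 39 tested genes were lower at an unadjusted p under 0.05, with a median of -1.10 on the log2 scale. Ndufs1, which carries iron-sulfur clusters of the electron path (Entrez 227197, chromosome 1, 63143592 to 63176822), had 160.3, 94.1 and 176 CPM in the 14-day libraries, against 272, 321 and 505 CPM in sham libraries. Ndufv1, the NADH- and flavin-binding subunit, averaged 164 ± 48.5 CPM at 14 days and 398 ± 122 CPM in sham (SD, n = 3 each; 2.43-fold lower). Both were lower in every 14-day library than in any sham library. Ndufb8 and Ndufa9, subunits of the membrane arm and of its junction with the matrix arm, had log2 fold changes of -1.29 ± 0.32 and -1.12 ± 0.30 (SE). The smallest p of the complex was that of Ndufa5 (Entrez 68202, chromosome 6, 24518662 to 24527690), a matrix-arm subunit, at 65.7, 55.6 and 65.1 CPM at 14 days, against 168, 115 and 148 CPM in sham (log2 -1.21 ± 0.24, edgeR adjusted p = 0.117). Ndufc1 had the most negative value among complex I genes, -1.51 ± 0.34, and the one complex I gene that was not lower was Ndufa4l2, described with the isoforms.

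All 4 subunits of complex II were lower at an unadjusted p under 0.05, between -1.35 and -1.01 on the log2 scale. Sdha, the flavoprotein that oxidises succinate (Entrez 66945, chromosome 13, 74322255 to 74350240), had 537, 294 and 562 CPM at 14 days, against 753, 1060.0 and 1744 CPM in sham. Sdhb, the iron-sulfur subunit, had 223, 189.8 and 265 CPM at 14 days, against 482, 379 and 666 CPM in sham (log2 -1.17 ± 0.34, edgeR adjusted p = 0.124). For each of the 4 genes the highest 14-day library was below the lowest sham library. The membrane anchors Sdhc and Sdhd averaged 2.01-fold and 2.35-fold lower. The 4 Sdhaf genes, which build complex II and are not part of it, had a smaller median, -0.49, and 2 of the 4 were lower by the same rule.

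In complex III, 8 of 8 genes were lower by that rule, with a median of -1.25. Uqcrfs1, the Rieske iron-sulfur protein (Entrez 66694, chromosome 13, 30540312 to 30545316), had the most negative value of the 8, with 164, 120.2 and 204 CPM at 14 days, against 341, 352 and 638 CPM in sham (log2 -1.45 ± 0.38). The core proteins Uqcrc1 and Uqcrc2 had log2 fold changes of -1.24 ± 0.38 and -1.32 ± 0.41, and the hinge protein gene Uqcrh one of -1.16 ± 0.29 with the smallest p of the complex (edgeR adjusted p = 0.117). Every complex III gene had non-overlapping groups.

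Complex IV and complex V were less uniform. In complex IV, 12 of 16 genes were lower at an unadjusted p under 0.05 (median -1.19), and the 4 that were not were Cox4i2, Cox6a2, Cox6b2 and Cox7a2l. Cox5a and Cox5b, which have no tissue form, averaged 197 ± 22.9 and 257 ± 29.1 CPM at 14 days, against 449 ± 130.2 and 577 ± 138 CPM in sham (SD, n = 3 each). In complex V, 14 of 17 genes were lower (median -0.94), and the 3 that were not were Atp5g1, Atp5g2 and Atp5j. Atp5j, a peripheral-stalk subunit named here after its values were seen, had groups that did not overlap but did not reach that p (edgeR adjusted p = 0.304). Atp5b, the catalytic beta subunit (Entrez 11947, chromosome 10, 128083307 to 128090388), was the gene with the highest mean CPM of the family, at 1661, 1108 and 1906 CPM at 14 days, against 3369, 3017 and 4913 CPM in sham. Its partner Atp5a1 had a log2 fold change of -1.12 ± 0.39, and the small subunits Atp5mpl and Atp5md, with the smallest p-values of the complex, -0.88 ± 0.19 and -1.16 ± 0.26.

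**Figure D2:**
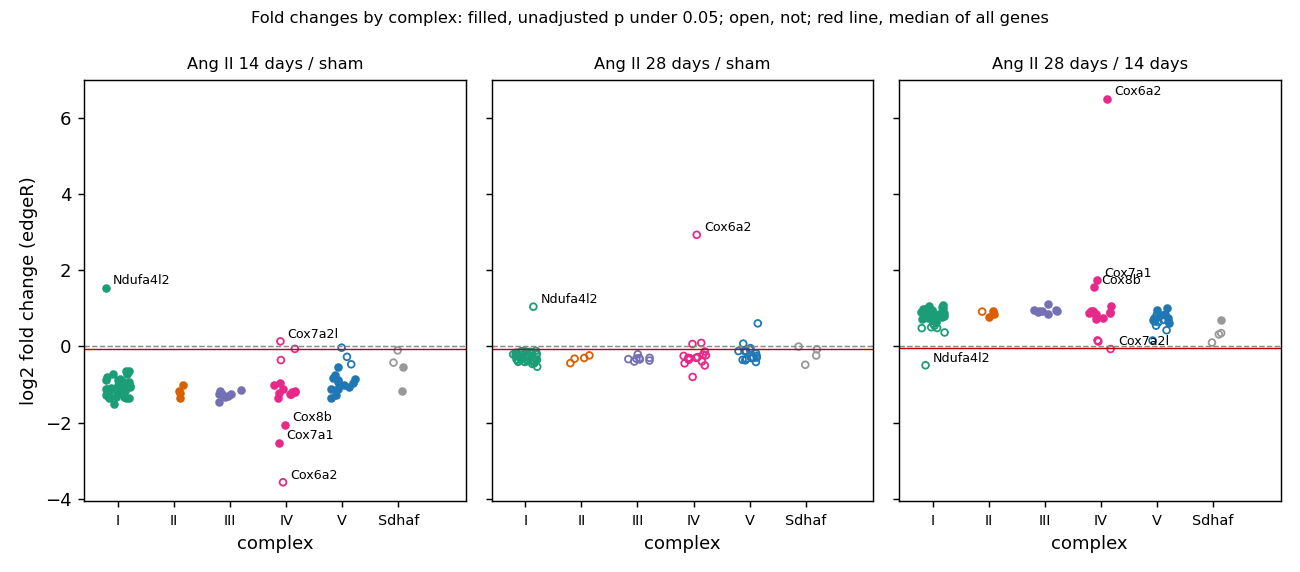
edgeR log2 fold change of each tested gene, by complex, in the 3 comparisons of Ang II 14 days with sham, Ang II 28 days with sham, and Ang II 28 days with 14 days. Filled points have an unadjusted p under 0.05, and the red line is the median of all genes. At 14 days 78 genes are filled below 0 and 1 above, at 28 days against sham 0 are filled, and at 28 days against 14 days 67 are filled above 0.

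Levels of markers of other cells differed between the same libraries. The 10 brown fat markers summed to 1108 to 2859.8 CPM at 14 days and 4544 to 9785 CPM in sham, with 5 of 9 tested markers lower at an unadjusted p under 0.05 and a median log2 fold change of -1.78. Ucp1, the uncoupling protein of brown fat, had 773, 651 and 1750.1 CPM at 14 days, against 2359, 2895 and 6133 CPM in sham, and no marker of the list was at 0 in all libraries of a group. The 10 macrophage and monocyte markers summed to 2364 to 13307 CPM at 14 days and 364 to 1563 CPM in sham, with 10 of 10 higher. The 5 T and B cell markers were higher (5 of 5, median 6.12). They summed to 26.6, 44.2 and 1049 CPM in 14-day libraries 1, 2 and 3, against 3.79 to 6.82 CPM in sham, so library 3 stood far above the others. Also higher were 3 of 6 fibroblast markers (median 0.90) and 1 of 5 pericyte markers. Of the 5 pericyte log2 fold changes, however, 3 were negative (median -0.16). Of 6 tested cardiac muscle markers 2 were lower (median -3.90). Of the 10 contractile smooth muscle markers 1 was lower by that rule, while 10 of 10 log2 fold changes were negative (median -1.16). Of the 9 white adipocyte markers 0 were lower or higher (median -0.55), likewise 0 of the skeletal muscle, endothelium and nerve markers. Among all genes tested 10.4% were lower and 13.1% higher by that rule, and the smooth muscle count was close to that share. The part of these cell types in the 14-day values was not tested.

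The second comparison sets the 28-day libraries against the 14-day libraries, and so the later stage against the earlier one. Of the 88 genes, 86 had a positive log2 fold change, with a median of 0.83 (1.78-fold higher), against a median of -0.05 over all genes. At an unadjusted p under 0.05 in edgeR, 67 of the 88 were higher and 0 were lower, where 3.86% of all genes were higher and 2.27% were lower. The groups did not overlap, with 28 days higher, for 49 of the 88 genes, where 4.35% of all genes were so, and with 28 days lower for 0, where 5.71% of all genes were so. None passed an adjusted p of 0.05 in edgeR (lowest 0.770), as for all genes (0%), and DESeq2 called 3 of the 88 higher, Ndufa5, Atp5mpl and Cox6a2, and 0 lower, where it called 0.594% of all genes higher and 0.212% lower. The count of 67 depended on single libraries. It was 11 without 28-day library 1, 25 without 28-day library 3, 17 without 14-day library 2 and 31 without 14-day library 1. Leaving out both 28-day libraries 1 and 2, the ones high in skeletal muscle markers, leaves library 3 alone, so no count is given.

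The genes higher at 28 than at 14 days at an unadjusted p under 0.05 were also counted by complex. They were 32 of 39 in complex I, 3 of 4 in complex II, 8 of 8 in complex III, 13 of 16 in complex IV and 10 of 17 in complex V. Positive log2 fold changes, whatever their p, numbered 38 of 39, 4 of 4, 8 of 8, 15 of 16 and 17 of 17 in that order. Uqcrfs1 of complex III had 467, 223 and 359 CPM at 28 days, against 164, 120.2 and 204 CPM at 14 days, and library 2 was the lowest of the 28-day group. Ndufa5 of complex I had 157, 94.2 and 146 CPM at 28 days, against 65.7, 55.6 and 65.1 CPM at 14 days (log2 1.09 ± 0.24, edgeR adjusted p = 0.77), and its groups did not overlap. Sdhb of complex II had 533, 246 and 443 CPM at 28 days, against 223, 189.8 and 265 CPM at 14 days. For none of the 4 complex II genes did these groups separate, since 28-day library 2 lay within the 14-day range. Atp5b had 3932, 1792 and 3279 CPM at 28 days, against 1661, 1108 and 1906 CPM at 14 days, with an overlap of the same kind. Brown fat markers summed to 2043 to 5484 CPM at 28 days and 1108 to 2859.8 CPM at 14 days, with 3 of 9 higher at an unadjusted p under 0.05 (median 1.22). By that rule 13 of 13 skeletal muscle markers were higher (median 9.37), as were 1 of 6 tested cardiac, 1 of 7 endothelium and 1 of 5 pericyte markers. Of the 5 pericyte log2 fold changes, however, 3 were negative (median -0.16). Of the cardiac and endothelium ones 2 each were negative (medians 0.13 and 0.31). Contractile smooth muscle markers were lower in 2 of 10 cases, with 10 of 10 log2 fold changes negative (median -1.46). The part of these cell types in the 28-day values was not tested.

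Against sham, the 28-day libraries had 82 of 88 negative log2 fold changes, but small ones, with a median of -0.28 against -0.08 over all genes. At an unadjusted p under 0.05 edgeR called 0 of the 88 lower and 0 higher, where 5.89% of all genes were lower and 7.96% were higher. At an adjusted p under 0.05 edgeR called 0 of the 88 (0% of all genes). DESeq2 called 0 of the 88, where it called 2.71% of all genes lower and 3.91% higher. The groups did not overlap for 3 of the 88 genes, 2 of them lower (9.46% of all genes) and 1 higher (12.2% of all genes). The 2 lower ones, named here after their values were seen, were the assembly factors Sdhaf3 and Sdhaf4, with log2 fold changes of -0.48 ± 0.26 and -0.24 ± 0.19, and the higher one was Ndufa4l2. The median over the 88 genes lay between -0.50 and -0.05 when single libraries were left out. The 3 comparisons share libraries, so their values are not independent of each other. In the same 28-day libraries the 10 smooth muscle markers were lower than in sham (10 of 10 at an unadjusted p under 0.05, median -2.55), and the skeletal muscle markers were higher (12 of 13). By that rule 5 of 5 T and B cell, 5 of 10 macrophage and monocyte, 3 of 6 fibroblast and 3 of 7 endothelium markers were higher. Of 6 tested cardiac markers 3 were lower. Of 9 tested brown fat markers 0 were lower or higher (median -0.52), likewise 0 of the white adipocyte, nerve and pericyte markers. The part of these cell types in the 28-day values was not tested.

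Cox7a1 and Cox8b, forms of contractile and thermogenic tissue, had more negative log2 fold changes at 14 days than their general counterparts. The third such form, Cox6a2, had overlapping 14-day and sham libraries and is described further on. Cox7a1 (Entrez 12865, chromosome 7, 30184171 to 30186030) had 274, 94.2 and 173 CPM in the 28-day libraries, 40.9, 48.0 and 74.3 CPM in the 14-day libraries and 417, 155 and 372 CPM in the sham libraries. Its counterpart of most tissues, Cox7a2 (Entrez 12866, chromosome 9, 79755241 to 79771422), had 302, 155 and 243 CPM at 28 days, 138, 119 and 134 CPM at 14 days and 362, 239 and 322 CPM in sham. All 14-day values of Cox7a1 lay below all values of the other groups, and its 28-day and sham values overlapped. Against sham at 14 days, the log2 fold change was -2.53 ± 0.51 for Cox7a1 (5.79-fold lower, edgeR adjusted p = 0.117) and -1.24 ± 0.27 for Cox7a2. Against 14 days, the 28-day values were 1.73 ± 0.50 for Cox7a1 and 0.84 ± 0.27 for Cox7a2.

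Cox8b (Entrez 12869, chromosome 7, 140898942 to 140900446), the form of contractile tissue and brown fat, had 716, 260.2 and 543 CPM at 28 days, 147, 134 and 237 CPM at 14 days and 793, 443 and 913 CPM in sham. Cox8a (Entrez 12868, chromosome 19, 7215158 to 7217616) had 999, 501 and 919.7 CPM at 28 days, 492, 424 and 549 CPM at 14 days and 1055, 771 and 1155 CPM in sham. Cox8b was 4.16-fold lower at 14 days than in sham and Cox8a 2.03-fold lower, and for both the 14-day and sham libraries did not overlap. Per length, Cox8b and Atp5b had the highest sham levels of all the genes, at 1990.0 and 1966 CPM per kilobase, and Cox8a stood at 1806 CPM per kilobase. In the sham libraries the contractile and general forms of Cox8 thus had similar levels per length. These libraries also held brown fat markers (4544 to 9785 CPM summed), whose part in the Cox8b level was not tested.

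To set each form against its counterpart within a library, its share of the pair was computed per length. Cox7a1 made up 57.7, 47.7 and 51.7% of Cox7a1 plus Cox7a2 at 28 days, 30.8, 37.8 and 45.4% at 14 days and 63.4, 49.4 and 63.4% in sham. The mean share was 38.0% ± 7.31 at 14 days and 58.7% ± 8.09 in sham (SD, n = 3 each), a difference of -20.8 percentage points (exact permutation test, two-sided, p = 0.1). All 14-day shares were below all sham shares. Cox8b made up 52.3, 44.2 and 47.4% of Cox8a plus Cox8b at 28 days, 31.3, 32.5 and 39.7% at 14 days and 53.4, 46.8 and 54.7% in sham. Its mean share was 34.5% ± 4.55 at 14 days and 51.6% ± 4.26 in sham, a difference of -17.1 points (exact permutation p = 0.1). For both forms, all 28-day shares were above all 14-day shares. The mean share was higher at 28 days by 14.4 points for Cox7a1 and 13.5 points for Cox8b (exact permutation p = 0.1 each). Against sham the 28-day shares overlapped, with differences of -6.38 and -3.68 points (exact permutation p = 0.3 each). With 3 libraries against 3 the smallest p that the exact test can give is 0.1, and over the 15 share comparisons made no Benjamini-Hochberg adjusted p was below 0.25.

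**Figure D3:**
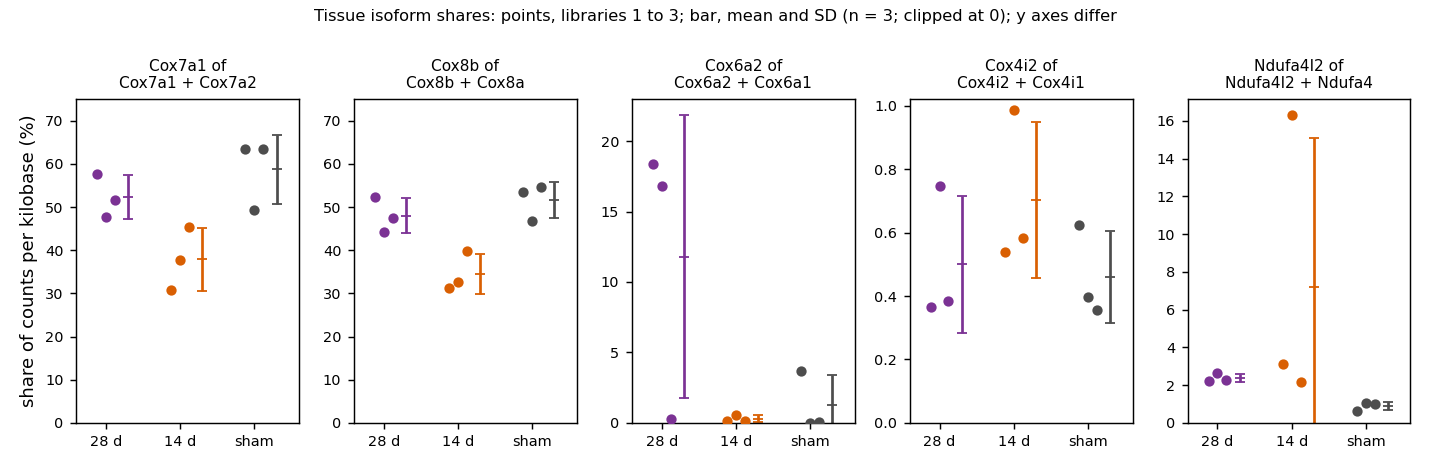
Share of each tissue form in its pair, in percent of the pair's CPM per kilobase, for each library, with the mean and SD of each group (n = 3, bars ending at 0 where they would pass it) and the groups in the order 28 days, 14 days, sham. For Cox7a1 and Cox8b all 14-day points lie below the points of both other groups. For Cox6a2 28-day libraries 1 and 2, at 18.4% and 16.8%, stand apart from the other 7 libraries.

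The starts of these paired genes are shown to let the promoters of the 2 kinds of form be compared. For Cox6a2 no promoter was matched, so Cox6a1 is shown without its counterpart. Each sequence runs 5′ to 3′ on the gene's own strand, from 250 bases before the annotated start to 50 after it, and is taken from RefSeq on build GRCm38.p6. Capitals mark matches, on either strand, to 4 motifs: GCGCA followed after 1 base by GCGC, the site of nuclear respiratory factor 1 (NRF1); CCGGAAG, the core of ETS-family sites such as those of GABP; AAGGTCA, the half-site of oestrogen-related receptors (ERR); and TATAAA. Matches of different motifs were counted separately, whether or not they overlapped. The regions are chr7:30183921-30184220 on the plus strand for Cox7a1, chr9:79759804-79760103 on the minus strand for Cox7a2, chr7:140900397-140900696 on the minus strand for Cox8b, chr19:7217567-7217866 on the minus strand for Cox8a, chr5:115348909-115349208 on the minus strand for Cox6a1 and chr5:108434350-108434649 on the minus strand for Atp5k, an ATP synthase subunit shown because its start holds 3 of the 4 motifs.
Cox7a1: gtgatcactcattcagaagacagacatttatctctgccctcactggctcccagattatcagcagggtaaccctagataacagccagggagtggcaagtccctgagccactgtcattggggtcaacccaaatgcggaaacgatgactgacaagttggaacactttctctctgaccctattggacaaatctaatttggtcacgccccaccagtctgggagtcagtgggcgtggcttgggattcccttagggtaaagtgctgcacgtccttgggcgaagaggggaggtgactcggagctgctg
Cox7a2: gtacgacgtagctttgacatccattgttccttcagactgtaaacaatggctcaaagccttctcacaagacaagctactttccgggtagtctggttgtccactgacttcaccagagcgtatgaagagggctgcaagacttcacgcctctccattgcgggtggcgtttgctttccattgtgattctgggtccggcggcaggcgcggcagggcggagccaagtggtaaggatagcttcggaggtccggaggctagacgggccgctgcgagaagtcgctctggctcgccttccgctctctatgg
Cox8b: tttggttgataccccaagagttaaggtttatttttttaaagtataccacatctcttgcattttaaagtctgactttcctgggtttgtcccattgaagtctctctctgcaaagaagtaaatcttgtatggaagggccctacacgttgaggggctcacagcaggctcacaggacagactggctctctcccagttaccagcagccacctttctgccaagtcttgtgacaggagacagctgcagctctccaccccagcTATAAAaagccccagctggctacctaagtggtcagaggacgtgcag
Cox8a: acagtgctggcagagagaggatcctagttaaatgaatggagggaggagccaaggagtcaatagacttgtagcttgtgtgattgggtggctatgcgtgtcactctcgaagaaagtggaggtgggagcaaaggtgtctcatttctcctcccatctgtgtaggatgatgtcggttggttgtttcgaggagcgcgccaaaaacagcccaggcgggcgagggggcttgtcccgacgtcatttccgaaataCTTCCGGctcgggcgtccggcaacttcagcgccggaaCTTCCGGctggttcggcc
Cox6a1: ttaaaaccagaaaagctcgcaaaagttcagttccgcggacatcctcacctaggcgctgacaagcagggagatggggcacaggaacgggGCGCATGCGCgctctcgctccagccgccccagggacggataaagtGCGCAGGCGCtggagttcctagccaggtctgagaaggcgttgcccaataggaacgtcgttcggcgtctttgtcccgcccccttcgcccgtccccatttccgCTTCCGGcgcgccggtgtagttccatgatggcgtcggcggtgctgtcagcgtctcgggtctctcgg
Atp5k: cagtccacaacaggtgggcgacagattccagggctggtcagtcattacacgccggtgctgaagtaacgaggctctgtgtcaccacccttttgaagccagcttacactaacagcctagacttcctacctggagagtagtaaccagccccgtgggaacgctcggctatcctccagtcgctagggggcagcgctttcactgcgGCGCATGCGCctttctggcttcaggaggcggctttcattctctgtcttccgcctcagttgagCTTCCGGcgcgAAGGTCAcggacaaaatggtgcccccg

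Neither Cox7 promoter held any of the 4 motifs in this window. The Cox7a2 window lies inside the span of the gene, which ends at 79771422, so other starts of Cox7a2 were not examined. Cox8b held a TATAAA within the 50 bases after its annotated start, not before it. Cox8a held no TATAAA and the ETS core at 2 places. Cox6a1 held the NRF1 motif at 2 places and the ETS core at 1. RefSeq promoters were matched for 73 of the 89 genes (78 promoters). The NRF1 motif was in 25.6% of these 78, against 4.60% of all 32851 promoters in the table, and the ETS core in 25.6%, against 8.86%. The ERR half-site was in 10.3% of the 78, against 4.72% of all, and TATAAA in 11.5%, against 13.6%. A match describes the letters of the window and does not show binding.

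Cox6a2 (Entrez 12862, chromosome 7, 128205435 to 128206366), the heart and skeletal muscle form of Cox6a, followed a pattern of its own. It had 304, 123 and 3.04 CPM in the 28-day libraries, 0.841, 2.88 and 1.02 CPM in the 14-day libraries and 55.4, 0.215 and 1.07 CPM in the sham libraries, where the value of sham library 2 rests on 3 counts. High values were seen in 28-day libraries 1 and 2 and, at a lower level, in sham library 1. The muscle creatine kinase gene Ckm, taken from the skeletal muscle list, had 2125, 761 and 13.3 CPM at 28 days. It had 4.62, 0.360 and 0.950 CPM at 14 days and 36.5, 0.858 and 3.20 CPM in sham. The cardiac myosin gene Myh6 had 0.438, 0.143 and 0.152 CPM at 28 days, 7.50, 0 and 0.136 CPM at 14 days and 324, 1.00 and 3.92 CPM in sham. The libraries with high Cox6a2 were the 2 highest in Ckm and the 1 highest in Myh6. The latter, sham library 1, also had the highest Ckm of the sham libraries. Myh4, the myosin of fast muscle fibres, was at 0 in all 14-day and sham libraries, where 3 counts amount to between 0.204 and 0.320 CPM. At 28 days against 14 days the log2 fold change of Cox6a2 was 6.50 ± 2.29 with non-overlapping groups (edgeR adjusted p = 0.77), and 28-day library 3, at 3.04 CPM, was just above the highest 14-day library, at 2.88 CPM. The part of other muscle tissue in these values was not tested. Against sham the 28-day groups overlapped, and without 28-day libraries 1 and 2, which leaves library 3 alone, the value was -2.63. Cox6a1, the general form, had 1133, 511 and 991 CPM at 28 days, 516, 407 and 549 CPM at 14 days and 1215, 805 and 1342 CPM in sham, without those high values.

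**Figure D4:**
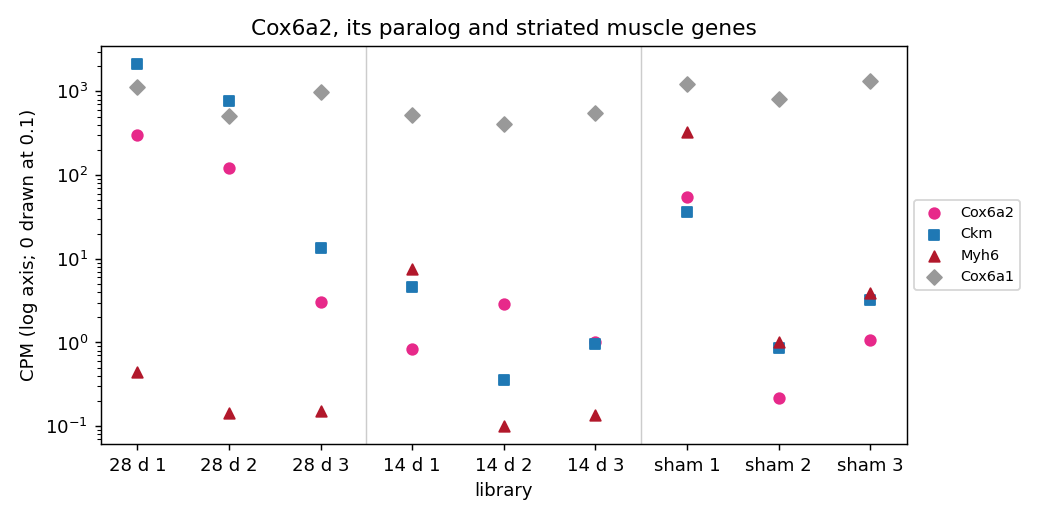
CPM of Cox6a2, of its counterpart Cox6a1, of Ckm and of Myh6 in each library, on a log axis with a value of 0 drawn at 0.1, and with the 28-day libraries left of the 14-day and sham libraries. Cox6a2 is at 304 and 123 CPM in 28-day libraries 1 and 2, where Ckm is high, and at 55.4 CPM in sham library 1, where Myh6 is high.

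Ndufa4l2 (Entrez 407790, chromosome 10, 127509274 to 127517154), a relative of Ndufa4 that is induced in low oxygen, was the one gene of the family higher at 14 days at an unadjusted p under 0.05. It had 28.0, 17.3 and 24.6 CPM at 28 days, 18.5, 67.2 and 12.8 CPM at 14 days and 9.70, 9.80 and 14.4 CPM in sham. The 14-day value (log2 1.54 ± 0.59, edgeR adjusted p = 0.175) rested on library 2, being 0.49 without it, and 14-day library 3 lay within the sham range. 14-day library 2 also had the highest macrophage marker sum, 13307 CPM, whose part in this value was not tested. At 28 days all 3 libraries were above all sham libraries (log2 1.04 ± 0.58, edgeR adjusted p = 0.519). Ndufa4 itself, counted here by its name with complex I and now known as a subunit of complex IV, had 610.4, 314 and 519.8 CPM at 28 days, 281, 169.9 and 285 CPM at 14 days and 726, 460.0 and 685 CPM in sham. As a share of the pair per length, Ndufa4l2 made up 2.21, 2.64 and 2.28% at 28 days, 3.14, 16.3 and 2.17% at 14 days and 0.653, 1.04 and 1.03% in sham. All shares of both Ang II groups were above all sham shares. A share also rises where Ndufa4 is lower, and Ndufa4 had log2 -1.35 ± 0.34 at 14 days against sham. The mean share was above that of sham by 1.47 points at 28 days and 6.30 points at 14 days (exact permutation p = 0.1 each, the smallest possible). Without 14-day library 2, the 14-day difference from sham was 1.75 points.

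Cox7a2l, Cox4i2 and Cox6b2 did not reach an unadjusted p of 0.05 in edgeR in any of the 3 comparisons. Cox7a2l, which takes part in joining complexes III and IV into supercomplexes (Entrez 20463, chromosome 17, 83501917 to 83514333), had 227, 192 and 221 CPM at 28 days, 164, 248 and 259 CPM at 14 days and 195, 187 and 231 CPM in sham. Its log2 fold changes were -0.07 ± 0.21 at 28 against 14 days, 0.06 ± 0.21 at 28 days against sham and 0.13 ± 0.21 at 14 days against sham, and the groups overlapped in each comparison. Cox4i2, the form of lung and of oxygen-sensing cells, had 3.94, 4.23 and 3.42 CPM at 28 days, 2.66, 4.75 and 3.19 CPM at 14 days and 6.71, 2.93 and 4.00 CPM in sham. It made up under 1% of Cox4i1 plus Cox4i2 in every library, at 0.365, 0.748 and 0.386% at 28 days, 0.540, 0.986 and 0.584% at 14 days and 0.625, 0.397 and 0.355% in sham, and the shares overlapped in all comparisons. Cox4i1, the general form, averaged 521 ± 35.9 CPM at 14 days and 1009 ± 217 CPM in sham (log2 -0.95 ± 0.29). Cox6b2, the testis form, had 2.15 to 4.71 CPM over the 9 libraries, with log2 fold changes between -0.07 and 0.16. Its counterpart Cox6b1 had log2 -1.24 ± 0.33 at 14 days against sham, close to the -1.23 ± 0.30 of Cox7b.

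The 3 genes that encode the same mature c-ring protein of ATP synthase differed among themselves. Atp5g1 (Entrez 11951, chromosome 11, 96072793 to 96075694) had 214, 136 and 62.5 CPM at 28 days, 81.6, 107 and 76.6 CPM at 14 days and 102, 110.4 and 59.0 CPM in sham. Atp5g2 had 219, 172 and 196 CPM at 28 days, 142, 189 and 196 CPM at 14 days and 233, 172 and 233 CPM in sham. Atp5g3 had 279, 186 and 200.2 CPM at 28 days, 164, 118 and 149 CPM at 14 days and 206, 207 and 220.1 CPM in sham. Of the 3, the 14-day and sham libraries were separate for Atp5g3 alone (log2 -0.55 ± 0.21, edgeR adjusted p = 0.168). The 14-day log2 fold changes of Atp5g1 and Atp5g2 were -0.03 ± 0.43 and -0.27 ± 0.21, and that of Atp5g1 changed sign with the fit used. At 28 days Atp5g1 was highest in library 1. Its log2 fold change was 0.60 ± 0.43 against sham, but -0.53 without 28-day libraries 1 and 2, which leaves library 3 alone. The coding parts of the 3 genes are alike, so a division of reads among them cannot be checked in these files.

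Genes around the complexes were also lower at 14 days, with smaller medians. Of 41 genes that assemble the complexes, 29 were lower and 0 higher at an unadjusted p under 0.05 (median -0.69), where 10.4% of all genes were lower and 13.1% higher. In edgeR 0 of the 41 passed an adjusted p of 0.05, and DESeq2 called 13 lower, where it called 4.8% of all genes lower. The most negative were Cox17 (-1.31 ± 0.29), which carries copper to complex IV, and Lyrm7 (-1.25 ± 0.29), which helps insert the Rieske protein into complex III. Of 23 genes of mitochondrial content outside the complexes, 16 were lower and 0 higher (median -0.73) against the same shares of all genes, among them Cycs, cytochrome c (-1.58 ± 0.37), Cs, citrate synthase (-1.32 ± 0.42), and Slc25a20, the carnitine carrier (-1.60 ± 0.41). Tomm20 and Slc25a3, the outer membrane import receptor and the phosphate carrier, had -0.18 ± 0.14 and -0.23 ± 0.19. The list also holds carriers and pores expressed in nearly every cell.

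Among 18 tested regulators of mitochondrial biogenesis, 7 were lower and 2 higher at 14 days than in sham at an unadjusted p under 0.05 (median -0.43), where 10.4% of all genes were lower and 13.1% higher. The number of higher regulators was thus close to the share among all genes. Lower ones were the nuclear receptors Ppara (-1.99 ± 0.45), Esrrg (-1.69 ± 0.40) and Esrra (-0.88 ± 0.29), the coactivators Ppargc1b (-1.39 ± 0.38) and Perm1 (-1.74 ± 0.59), the mitochondrial transcription factor Tfb2m (-0.91 ± 0.26) and the ETS factor Gabpa (-0.42 ± 0.18). The 2 higher ones were Nrf1 (0.55 ± 0.20) and the coactivator Pprc1 (0.43 ± 0.18). Ppargc1a, the coactivator PGC-1alpha and also one of the 10 brown fat markers, had -1.02 ± 0.77 and did not reach that p, nor did Tfam, which packages mitochondrial DNA, at -0.17 ± 0.22. At 28 days against 14 days 4 regulators were higher, Ppara (1.82 ± 0.45), Esrrg (1.62 ± 0.40), Ppargc1b (1.28 ± 0.38) and Perm1 (2.14 ± 0.60), and 0 were lower. In that comparison 8 of 41 assembly factors and 10 of 23 content genes were higher and 0 lower, where 3.86% of all genes were higher and 2.27% lower. At 28 days against sham, 1 of 41 assembly factors was lower, and 0 regulators and 0 content genes were lower or higher by that rule, where 5.89% of all genes were lower and 7.96% higher. No gene of these 3 lists passed an adjusted p of 0.05 in edgeR, and at 14 days against sham DESeq2 called 6 of 18 regulators and 12 of 23 content genes lower, where it called 4.8% of all genes lower.

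Per length, levels in the sham libraries spread widely over the 87 genes with a known length. The highest sham means were Cox8b at 1990.0, Atp5b at 1966, Cox6a1 at 1963 and Cox8a at 1806 CPM per kilobase. The lowest were Sdhaf3 at 2.07, Cox4i2 at 6.23, Cox6b2 at 7.53 and Ndufa4l2 at 12.1 CPM per kilobase. At 14 days the mean level of Cox8b was 479 CPM per kilobase, below those of Cox6a1 at 859 and Cox8a at 888. At 28 days it was 1406, against 1538 for Cox6a1 and 1467 for Cox8a. These are levels within a library and depend on the transcript length assumed for each gene.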

How the data were processed

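The 9 libraries hold expected counts per gene, which the authors deposited as 1 file per library, per the file headers. Expected counts divide reads that match several transcripts among them, and between 9.77% and 11.0% of the values in a library were not whole numbers. Per the labels' protocols, libraries were made from 1.0 ug of total RNA with an MGIEasy mRNA kit. The submitters' processing notes name HISAT2 2.2.1, Bowtie2 2.4.5, RSEM 1.3.1 and the build GRCm38.p6, with no role for each. Whether counting used strand is not given in the sources used here.

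Counts were rounded to whole numbers and fitted over all 9 libraries with edgeR 4.0.16 (R 4.3.3; TMM, filterByExpr, robust glmQLFit and glmQLFTest), with 3 groups and no covariate. Of 18830 genes 14741 passed the filter. Adjusted p-values are Benjamini-Hochberg over all 14741, and the biological coefficient of variation was 51.3%. The code was tested on simulated data. CPM are counts per 1000000 after TMM scaling. Gene symbols came from RefSeq by Entrez ID (18775 of 18830 matched). The test of isoform shares had been planned on FPKM. The files hold no such column, so shares and levels per length use counts per kilobase of the median transcript length in GENCODE M21.

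Members, gene lists and tests were chosen with earlier results of these data known. Oxidative phosphorylation genes named in the text are mainly the tissue isoforms, a list of 18 core subunits, and the 2 genes with the smallest p in each complex and comparison. Single genes of the assembly, content and regulator lists, such as Cox17, Lyrm7, Slc25a20 and Tomm20, were named after their values were seen. Alternatives were DESeq2 1.42.0, limma-voom (limma 3.58.1), other size factors, other filters, a replicate block, the 2 groups alone, and libraries left out. Adjusted p-values that DESeq2 gave as NA were left as such.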

Additional observations from a re-analysis of the deposited data

How the results depend on the processing

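Of 388 values of the group counts, medians and isoform shares under other settings, 356 were labelled the same. Counts had to stay within 1.5 times, isoform shares had to keep the sign of their difference, and medians had to move by less than 0.36. That allowance is the pooled SD of the per-library median. It exceeds the median at 28 days against sham, -0.28, so the label does not check the sign of that median. The median log2 fold change of the oxidative phosphorylation genes ranged from -1.27 to -0.88 at 14 days against sham, from -0.50 to -0.05 at 28 days against sham and from 0.61 to 1.06 at 28 against 14 days when 1 library was left out. At an adjusted p under 0.05, DESeq2 called 70 genes at 14 days against sham and 3 at 28 against 14 days, where edgeR called 0. The single gene higher at 14 days at an unadjusted p, Ndufa4l2, made the count 0 with limma-voom, without the 3 libraries high in nerve markers, without 28-day replicates 1 and 2 and with only the 2 groups fitted, and between 0 and 1 with 1 library left out. Genes lower at 28 days against sham numbered 1 with limma-voom, 2 without the nerve-rich libraries and 0 to 4 with 1 library left out, and genes higher numbered 1 with only the 2 groups and 0 to 1 with 1 library left out. Genes higher at 28 against 14 days numbered 11 to 78 with 1 library left out. The cause of these differences was not tested.

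With the replicate number as a block, edgeR called 0 of the genes at an adjusted p in any comparison. At an unadjusted p, 78 were lower and 0 higher at 14 days against sham, 3 were lower at 28 days against sham, and 70 were higher at 28 against 14 days. Libraries with the same number had correlations of -0.553 to 0.646 between their deviations from the group means, and a library correlated best with its own number in 4 of 18 cases, so the numbers were not taken as pairs.

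Signs turned for forms at low level and for values near 0. The Cox6a2 share at 14 days against sham was 0.30 and 0.085 as a log2 ratio with 0.1 and 1 CPM per kilobase added, and -1.58 to 0.25 points with 1 library left out. Leaving out 28-day replicates 1 and 2 leaves replicate 3 alone in that group. The 28-day differences of the Cox6a2 share were then -1.003 points from sham and -0.038 points from 14 days. The Cox6a2 log2 fold change was then -2.63 against sham. With 1 library left out, Cox6a2 lay between -4.28 and 1.33 at 14 days against sham. The Cox4i2 share at 28 days against sham was -0.11 points without the nerve-rich libraries, -0.073 without 28-day replicates 1 and 2 and -0.084 to 0.12 with 1 library left out. Cox4i2 at 28 against 14 days was -0.19 without the nerve-rich libraries and -0.049 without 28-day replicates 1 and 2. With 1 library left out it lay between -0.042 and 0.40 there, -0.61 and 0.028 at 14 days against sham, and -0.47 and 0.15 at 28 days against sham. Atp5g1 at 14 days against sham was 0.0076 with limma-voom, 0.036 with the block, 0.24 without the nerve-rich libraries and -0.21 to 0.13 with 1 library left out. Without 28-day replicates 1 and 2 it was -0.53 at 28 days against sham and -0.50 at 28 against 14 days, and Atp5g3 was -0.076 at 28 days against sham.

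With 1 library left out, log2 fold changes at 28 days against sham crossed 0 for 12 further genes: Cox7a2l (-0.00035 to 0.21), Cox6b2 (-0.16 to 0.35), Cox4i1 (-0.44 to 0.0048), Ndufb8 (-0.48 to 0.012), Ndufa9 (-0.49 to 0.012), Sdhc (-0.47 to 0.031), Sdhd (-0.45 to 0.085), Uqcrc2 (-0.59 to 0.038), Uqcrfs1 (-0.61 to 0.063), Cox5a (-0.37 to 0.17), Atp5a1 (-0.51 to 0.12) and Atp5g3 (-0.13 to 0.18). The same held for Cox6b2 at 14 days against sham (-0.13 to 0.011), and at 28 against 14 days for Cox6b2 (-0.12 to 0.41), Cox7a2l (-0.25 to 0.049) and Ndufa4l2 (-0.88 to 0.58). Of the 37 genes named for 14 days against sham, 29 passed an adjusted p of 0.05 with DESeq2 and 0 with any other setting. Depth limits Cox6a2 in sham library 2, with 3 counts, and Ndufb4b, with 3 counts or fewer in 8 of 9 libraries.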
